A study of Mus musculus with 8 samples.

Results

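The genes described here are 37 genes of the type I interferon response, taken by name from a list, among 20340 genes in the count tables of single brain cells. All 37 were found in the tables of all 8 libraries. No measured value was used to choose a member, but the list was drawn up with earlier results of these data known. The study sorted live cells from brain hemispheres of male C57BL/6J mice aged 8 to 9 weeks after a suture had closed the middle cerebral artery for 60 min and been withdrawn, and counted transcripts with a 10x Genomics 3′ kit. The design asked what Prdx1, the gene of the peroxide-removing enzyme peroxiredoxin 1, does in this model of stroke. The 8 libraries were 1 each of the labels WT (Prdx1+/+) and Prdx1-/-, the ipsilateral (occluded) and contralateral hemisphere, and 24 h and 48 h. The sort used a viability dye and no cell marker, and the labels name no Cre or target cell type for the Prdx1-/- mice. Every animal had been operated on, so the contralateral hemisphere is a control within operated mice and not a naive brain. The labels give neither the number of animals per library nor whether both hemispheres came from the same animals, so a p-value here reflects how far these libraries scatter, a scatter that may be technical.

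Type I interferons are cytokines that cells release when sensors of foreign or misplaced nucleic acid are triggered. They bind the receptor made of Ifnar1 and Ifnar2, whose kinases Jak1 and Tyk2 activate Stat2, which takes part with Irf9 in a complex that binds the interferon-stimulated response element of target promoters. Microglia, the resident macrophages of the brain, and the monocytes and neutrophils that enter it after stroke can all carry this response.

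The list holds the cytosolic sensors Ifih1, Ddx58, Dhx58, Zbp1 and Ifi204, the transcription factors Irf7, Irf9 and Stat2, the ubiquitin-like modifier Isg15 with its protease Usp18 and its ligase Herc6, and the translation inhibitors Ifit1, Ifit2 and Ifit3. It goes on with the RNA-sensing synthetases and relatives Oas1a, Oas3, Oasl1 and Oasl2, the kinase Eif2ak2 (PKR), and the antiviral effectors Ifitm3, Bst2, Rsad2, Cmpk2 and Mx1. Gbp2 and Gbp3 are GTPases, Sp100 is a protein of nuclear bodies and Trim30a a TRIM protein, and Ifi27l2a, Rtp4, Ifi44, Xaf1, Phf11b, Phf11d, Slfn2, Slfn5 and Parp14 are further interferon-induced genes. In the GENCODE annotation of GRCm38 (mm10, the build named in the submitters' processing notes) the members lie on 15 chromosomes. Several lie close together: Ifit2 (chr19:34550694-34576419, plus strand), Ifit3 (chr19:34583531-34588731, plus strand) and Ifit1 (chr19:34640871-34650009, plus strand), and Rsad2 (chr12:26442746-26456452, minus strand) near Cmpk2 (chr12:26469204-26479837, plus strand). Isg15 lies at chr4:156199424-156200818, minus strand, and Slfn5 at chr11:82951349-82964840, plus strand. Members with close relatives (Ifit3 and Ifit3b, the Oas1, Phf11, Slfn, Gbp and Ifi200 genes, Trim30a) have less certain counts, because how reads shared between copies were counted is not given in the sources used here.

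The response element was looked for by its letters, GAAA, any 2 bases and GAAA (on the other strand TTTC, any 2 bases and TTTC), in the 250 bases before each transcription start in RefSeq promoters (GRCm38.p6). Of the 29 members with an entry, 13 held it (44.8%), against 3.46% of 27025 genes. The 13 were Ifit1, Ifit3, Isg15, Oas1a, Oas3, Bst2, Stat2, Rsad2, Phf11b, Slfn5, Trim30a, Gbp2 and Gbp3. Dhx58, Zbp1, Rtp4, Parp14, Ifi27l2a, Usp18, Mx1 and Ifi204 had no entry. A match is a description of the letters and not a bound site. The stretches below, read on each gene's own strand, belong to members whose levels the results turn on. Matching bases are in capitals, and overlapping matches run together in Isg15, Oas1a and Bst2. Ifit3 held 2 matches, and its stretch shows only the match nearest the start.
Isg15 (chr4:156200855-156200904, minus strand): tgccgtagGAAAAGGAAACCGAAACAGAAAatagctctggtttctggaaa
Ifit3 (chr19:34583387-34583436, plus strand): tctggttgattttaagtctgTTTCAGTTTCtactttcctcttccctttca
Rsad2 (chr12:26456543-26456592, minus strand): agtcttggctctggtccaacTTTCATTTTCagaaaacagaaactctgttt
Stat2 (chr10:128270256-128270305, plus strand): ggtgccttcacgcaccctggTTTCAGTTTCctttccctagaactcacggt
Trim30a (chr7:104465200-104465249, minus strand): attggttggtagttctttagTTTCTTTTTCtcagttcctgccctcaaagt
Oas1a (chr5:120907526-120907559, minus strand): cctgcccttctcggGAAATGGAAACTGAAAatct
Bst2 (chr8:71537567-71537616, minus strand): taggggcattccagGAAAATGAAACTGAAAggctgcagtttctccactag

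The libraries held 39433266 to 70111421 UMIs (unique molecular identifiers, 1 per captured transcript) and 4189 to 5759 cells. Between 3 and 17 barcodes were shared by any 2 libraries. Cells were put in classes by marker genes, with limits on the marker scores that were set after the data were seen, and a class is named X-like for that reason. Of 39608 cells that passed filters 36337 were placed, 20616 of them microglia-like, 7500 monocyte/macrophage-like, 5982 neutrophil-like, 777 B-like and 700 T and NK-like. Near the limits lay 640, 563, 137, 10 and 44 of these cells. Each of these 5 classes held its own markers at the highest summed level, but the neutrophil markers stood at 10517 CPM (the standard scaling of a gene's or list's UMIs by all UMIs of the class in that library) in the monocyte/macrophage-like cells of the WT contralateral library at 24 h, against 1128 to 4602 CPM in the other 7.

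Prdx1 itself (chr4:116685544-116700822, plus strand) was checked first. Values of the 8 libraries are given throughout in 1 order: WT contralateral, WT ipsilateral, Prdx1-/- contralateral and Prdx1-/- ipsilateral at 24 h, then the same at 48 h. In microglia-like cells Prdx1 stood at 262, 399.9, 89.3 and 269 CPM at 24 h, then 337, 476, 5.77 and 5.38 CPM at 48 h. Both libraries labelled Prdx1-/- at 24 h held Prdx1 transcripts, while both at 48 h were near 0. With the gate used here the ipsilateral one at 24 h lay within the WT range and the contralateral one below it. With higher limits on the marker scores (the stricter gate of the closing section) the ipsilateral one, too, lay below the WT range. Monocyte/macrophage-like cells gave 572, 464, 259.5 and 369.9 CPM at 24 h, then 872, 1069.7, 8.35 and 9.48 CPM at 48 h. There both libraries labelled Prdx1-/- at 24 h lay below the WT range but far above the same label at 48 h. The difference with the label at 48 h was taken from a fit over all 8 libraries that let it vary with time. It was -6.85 (log2) in monocyte/macrophage-like cells (edgeR, adjusted p = 4.11e-05) and -6.08 in microglia-like cells (adjusted p = 0.0640). The labels are therefore used only as labels, each genotype difference is between libraries labelled Prdx1-/- and libraries labelled WT, and each is also given with the 48 h libraries alone.

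Across classes the members differed in level. By the median over libraries, 15 members were highest in monocyte/macrophage-like, 11 in T and NK-like, 8 in neutrophil-like and 3 in microglia-like cells, as a description. Ifitm3, which blocks virus entry at membranes, ranged from 49.6 to 191 CPM in microglia-like cells and from 2294 to 3701 CPM in monocyte/macrophage-like cells. Isg15 ranged from 16.04 to 79.6 CPM in the former and from 71.6 to 534 CPM in the latter. The WT ipsilateral library at 48 h was highest for 26 of 37 members in microglia-like and for 25 of 37 in neutrophil-like cells. Among monocyte/macrophage-like cells, the contralateral 48 h libraries were highest for 15 (WT) and 20 (Prdx1-/-) members. In microglia-like cells the Prdx1-/- libraries of 24 h were lowest for 14 (contralateral) and 17 (ipsilateral) members.

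**Figure D1:**
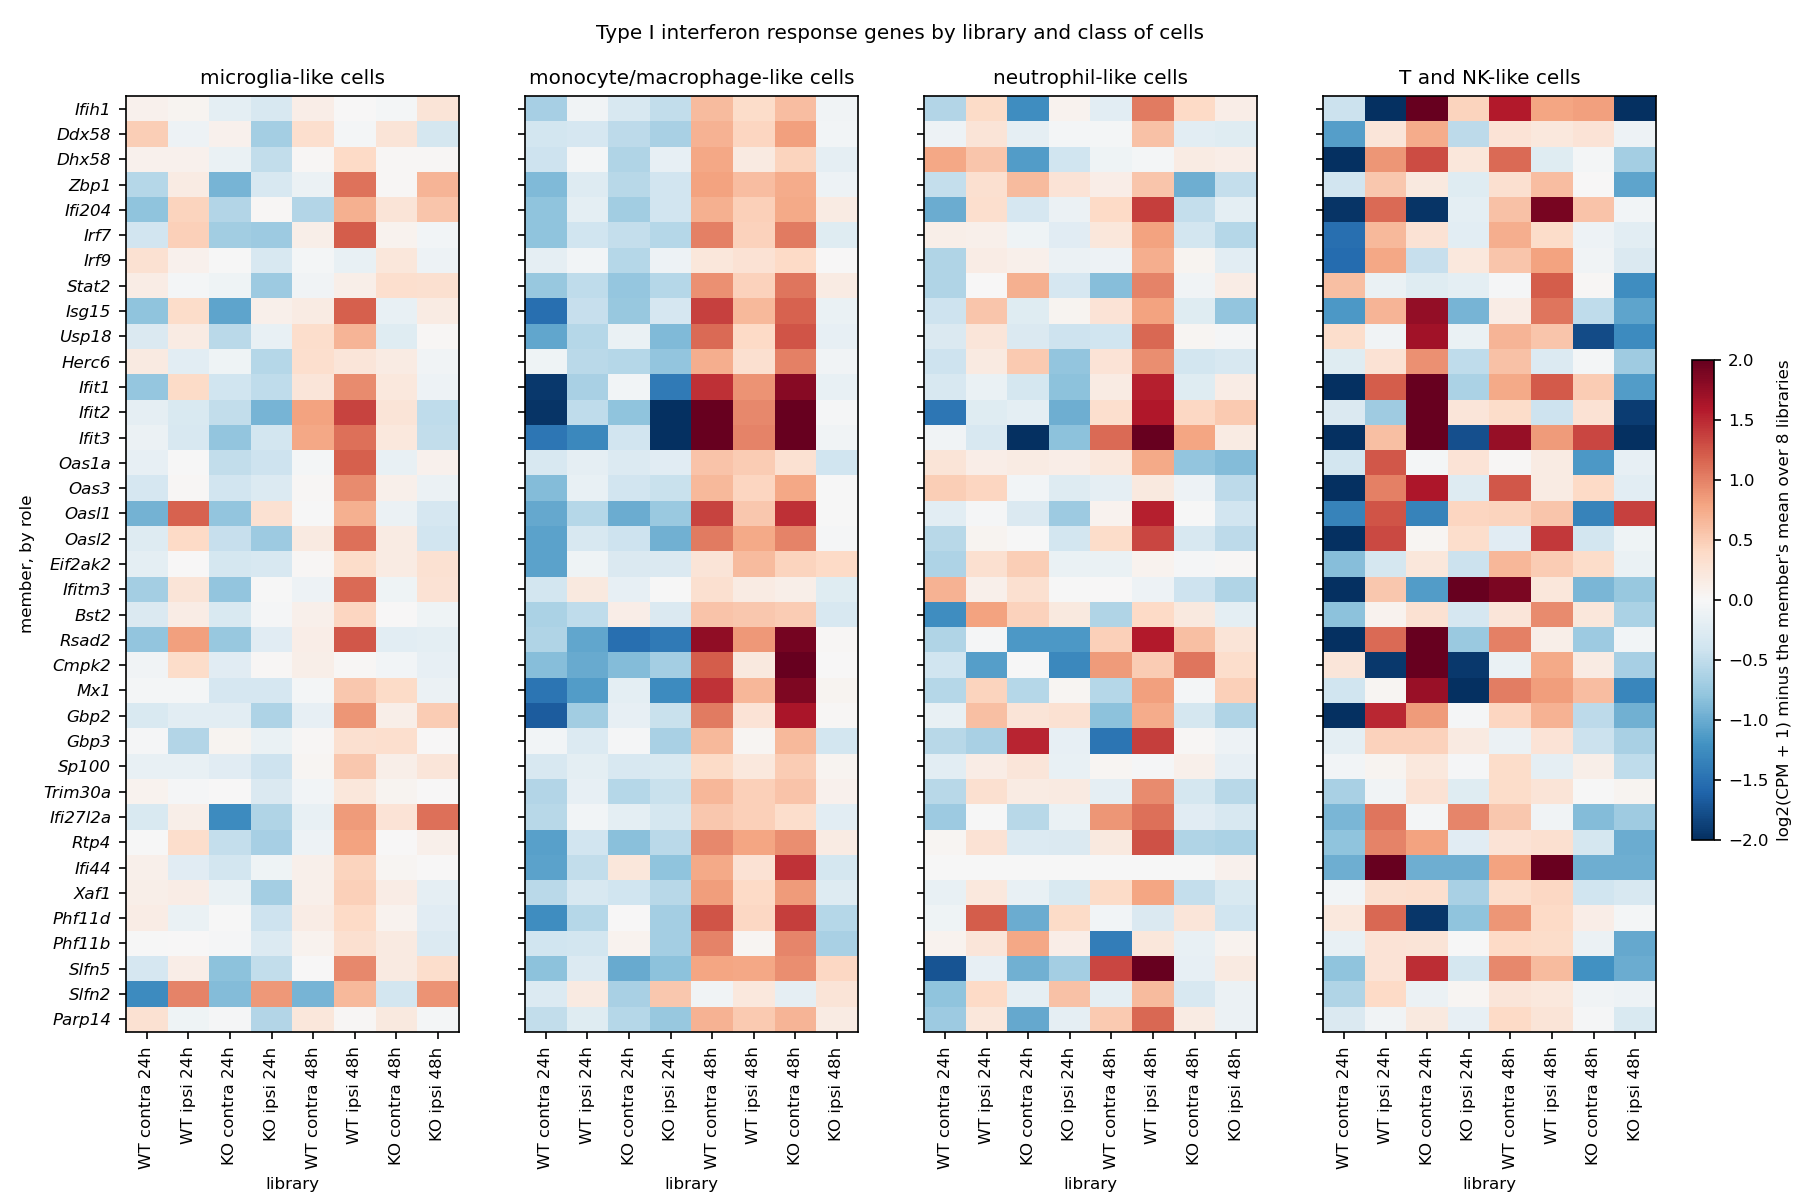
Level of each of the 37 members (rows, ordered by role) in each of the 8 libraries (columns, WT or KO for the label Prdx1-/-) in 4 classes of cells. Colour is log2(CPM + 1) minus the member's mean over the 8 libraries, with the scale ending at -2 and 2. High values (red) gather in the WT ipsilateral 48 h column for microglia-like and neutrophil-like cells, and in both contralateral 48 h columns for monocyte/macrophage-like cells.

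The question set for these genes was whether their lower level under the label Prdx1-/- holds in each class of cells. Counts were summed per class and library and tested with edgeR's quasi-likelihood test, with terms for label, hemisphere and time, and a member is called where its p, adjusted over all genes by Benjamini-Hochberg, is under 0.05. Differences are log2 fold changes, given ± SE. Counts of members at an unadjusted p under 0.05 are given, here and below, without the share of all genes at that cut. Counts called by DESeq2's test are likewise given without the share of all genes that this test called. The background beside both is that of edgeR's adjusted p, so both kinds of count are description only. No member passed in any of the 4 classes. In microglia-like cells 34 of 37 members had a negative difference (median -0.28, all genes 0.001), 0 were called lower or higher in edgeR, where 0% of genes passed, 16 were lower at an unadjusted p under 0.05 and 2 were called by DESeq2's test (Irf7 and Ifit2). In monocyte/macrophage-like cells 33 of 37 were negative (median -0.20, all genes 0.005), with 0 called, 0 at an unadjusted p under 0.05, 0 by DESeq2 and a background of 0%. In neutrophil-like cells 31 of 33 were negative, with the median farthest from 0, -0.61 (all genes 0.014), 0 called, a background of 0%, 17 lower at an unadjusted p under 0.05 and 0 by DESeq2. In T and NK-like cells 26 of 27 were negative (median -0.36, all genes -0.003), with 0 called, 0.014% of genes lower and 0% higher, 4 lower at an unadjusted p under 0.05 and 0 by DESeq2. That median ran from -0.81 to -0.18 over 16 alternatives, and was -0.76 without the WT contralateral library of 24 h, -0.63 without the Prdx1-/- contralateral library of 24 h, -0.21 without the WT contralateral library of 48 h, -0.18 without the WT ipsilateral library of 48 h and -0.19 without the Prdx1-/- ipsilateral library of 48 h. In B-like cells, fitted over 7 libraries because 1 held 10 cells, 13 of 17 were negative (median -0.19) and 0 were called (0.0578% of genes lower, 0% higher; at an unadjusted p under 0.05, Ifi27l2a was lower at -0.67 ± 0.15 and Irf7 higher at 1.51 ± 0.54, and DESeq2's test was not run there).

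**Figure D2:**
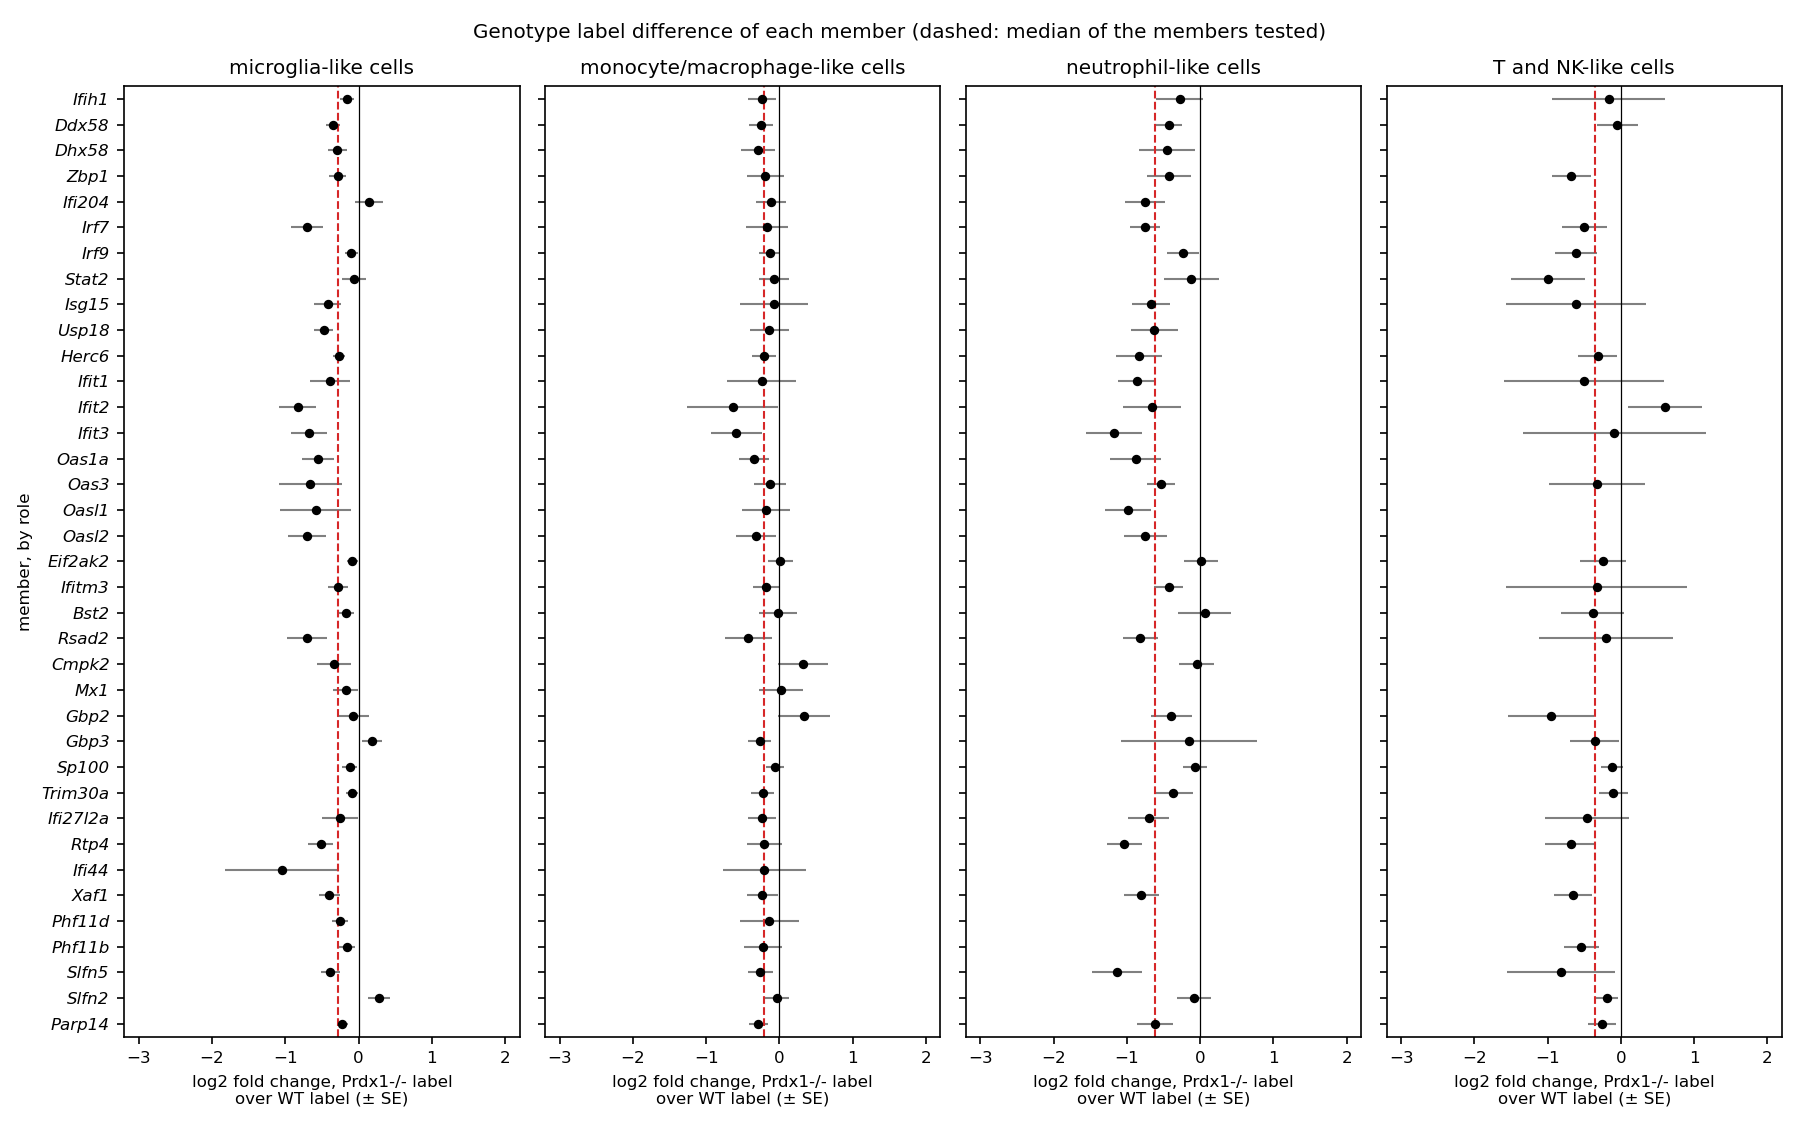
Log2 fold change of each member between libraries labelled Prdx1-/- and WT (horizontal axis, points with ± SE from the additive fit over 8 libraries) in 4 classes of cells, members in rows by role. Nearly all points lie left of 0, with medians (dashed) of -0.28, -0.20, -0.61 and -0.36, and none passed an adjusted p under 0.05.

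Matched pairs of libraries (same hemisphere and time) were compared on CPM scaled by edgeR's TMM factors, unlike the CPM printed here. By this count 14 of 37 members were lower under the label in all 4 pairs in microglia-like cells (37.8%, against 12.4% of all genes tested). In neutrophil-like cells 11 of 33 were (33.3%, against 5.19%). The counts were 2 of 37 in monocyte/macrophage-like (5.41%, against 4.68%) and 1 of 27 in T and NK-like cells (3.7%, against 6.29%), near the background with the gate used here. Under a stricter gate (a score of at least 0.3 and 2.5 times the next) the monocyte/macrophage-like count was 6 of 37, against 5.66% of all genes, so for this class the reading against the background depended on the gate. The T and NK-like count was 0 of 23, against 5.92%. In microglia-like cells the 14 were Cmpk2, Ddx58, Dhx58, Herc6, Ifit2, Ifitm3, Irf7, Isg15, Oas1a, Oasl2, Parp14, Phf11d, Usp18 and Xaf1. Without the scaling, Dhx58, Ifitm3 and Xaf1 were higher under the label in the contralateral pair of 48 h. In neutrophil-like cells the 11 were Ddx58, Ifi27l2a, Ifit1, Ifit3, Ifitm3, Irf7, Isg15, Oasl1, Parp14, Rtp4 and Xaf1. There, without the scaling, Ifi27l2a, Isg15 and Xaf1 were higher under the label in the contralateral pair of 24 h. The matched pairs of 24 h include the libraries labelled Prdx1-/- that held Prdx1 transcripts.

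In microglia-like cells Irf7, the factor that amplifies interferon production, stood at 7.61, 14.6, 5.95 and 5.82 CPM at 24 h, then 11.2, 25.2, 10.8 and 9.88 CPM at 48 h. Its difference was -0.71 ± 0.22 (adjusted p = 0.309), and the WT ipsilateral library of 48 h stood apart above the rest. Ifit2 stood at 7.88, 7.12, 6.12 and 4.28 CPM at 24 h, then 16.6, 24.6, 11.01 and 6.11 CPM at 48 h (-0.83 ± 0.25, adjusted p = 0.312), with the 2 WT libraries of 48 h above the other 6. Usp18, which removes Isg15 and dampens the receptor, stood at 6.16, 8.74, 5.01 and 6.86 CPM at 24 h, then 10.2, 13.03, 6.41 and 7.85 CPM at 48 h (-0.48 ± 0.13, adjusted p = 0.229). With the 48 h libraries alone it was the 1 member called lower in these cells (-0.75 ± 0.17, adjusted p = 0.0308; background 1.69% lower, 1.34% higher). Ddx58 had the smallest p of the additive fit (-0.35 ± 0.10, adjusted p = 0.222), and Herc6 had -0.27 ± 0.09 (adjusted p = 0.296) and Slfn5 -0.38 ± 0.13 (adjusted p = 0.310). The 3 members with a positive difference were Ifi204 (0.15 ± 0.19), Gbp3 (0.18 ± 0.14) and Slfn2 (0.28 ± 0.15).

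Of other roles in microglia-like cells, members were likewise not called with the label in the 8-library fit. Irf9, the DNA-binding subunit beside Stat2, stood at 42.7, 36.5, 34.1 and 27.1 CPM at 24 h, then 33.4, 30.8, 40.1 and 32.0 CPM at 48 h (-0.10 ± 0.09 with the label). Bst2 (tetherin), which holds budding virus at the cell surface, stood at 215, 292, 213 and 259 CPM at 24 h, then 283, 355, 265 and 249 CPM at 48 h (-0.17 ± 0.11). Trim30a stood at 78.4, 73.8, 75.3 and 61.1 CPM at 24 h, then 72.1, 87.5, 77.4 and 75.4 CPM at 48 h (-0.09 ± 0.08). These ranges of the WT and Prdx1-/- libraries overlapped. Ifit3 stood at 12.4, 10.7, 7.46 and 10.3 CPM at 24 h, then 23.9, 30.5, 15.9 and 9.45 CPM at 48 h (-0.67 ± 0.24, adjusted p = 0.378), and passed with each cell thinned to 2000 UMIs (-0.71 ± 0.15, adjusted p = 0.0422). The median over members stayed between -0.38 and -0.20 in 16 alternatives.

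In neutrophil-like cells Rtp4, a chaperone for receptors that is induced by interferon, stood at 64.5, 76.6, 51.9 and 51.2 CPM at 24 h, then 72.0, 152, 41.0 and 40.1 CPM at 48 h and had the smallest p (-1.04 ± 0.24, adjusted p = 1). Ifit1, which binds RNA caps that lack a methyl group, stood at 25.0, 28.6, 24.2 and 17.2 CPM at 24 h, then 35.1, 93.9, 26.3 and 34.9 CPM at 48 h (-0.87 ± 0.25, adjusted p = 1). Slfn5 stood at 7.74, 24.8, 13.8 and 17.1 CPM at 24 h, then 72.0, 131, 24.9 and 31.9 CPM at 48 h (-1.13 ± 0.34, adjusted p = 1). In each of these 3 the WT ipsilateral library of 48 h was the highest of the 8. Irf7 (-0.75 ± 0.20), Rsad2 (-0.82 ± 0.24) and Xaf1 (-0.80 ± 0.24), a gene that promotes cell death, followed by p. Without that library 29 of 32 members were still negative, with a median of -0.46, and over 16 alternatives the median ran from -0.82 to -0.45. The same library had the lowest summed neutrophil markers, 171650 CPM against 242799 to 368656 CPM in the other 7, and the part of that in the differences was not tested. Mx1, Ifi44, Phf11b and Phf11d were too low to be tested in this class.

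Monocyte/macrophage-like cells had the median nearest to 0 of the 4 classes. Parp14 had the smallest p, at 45.8, 54.5, 43.1 and 38.0 CPM at 24 h, then 106, 92.9, 104 and 72.4 CPM at 48 h (-0.29 ± 0.13, adjusted p = 1), and Oas1a, an RNA-activated synthetase, had -0.35 ± 0.20 (adjusted p = 1). Among the 48 h libraries the 2 contralateral ones were alike for Irf7, at 55.4, 74.2, 70.1 and 65.4 CPM at 24 h, then 198, 135, 203 and 82.3 CPM at 48 h, while the ipsilateral Prdx1-/- library was the lowest of the 4. The median was 0.03 in the contralateral and -0.41 in the ipsilateral hemisphere. Without the Prdx1-/- ipsilateral library of 48 h the median was 0.04 and 16 of 37 members were negative. Over 16 alternatives the median ran from -0.37 to 0.04, so its direction was not kept.

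Whether the difference with the label depended on hemisphere or time was tested as an interaction in fits over all 8 libraries. For hemisphere 0 members were called in each of the 4 classes (background 0% in each; 8, 4, 1 and 3 members at an unadjusted p under 0.05 in microglia-like, monocyte/macrophage-like, neutrophil-like and T and NK-like cells, all toward a lower ipsilateral level). The ipsilateral medians were -0.46, -0.41, -0.79 and -0.78 and the contralateral medians -0.11, 0.03, -0.35 and -0.03 in the same order. For time 0 members were called (4, 1, 7 and 4 at an unadjusted p under 0.05; background 0.0073%, 0.00891%, 0% and 0.0419%). The medians at 24 h were -0.30, -0.025, -0.34 and 0.20 and those at 48 h -0.30, -0.30, -0.80 and -0.93. DESeq2's test was not run on these interactions. Whether the label difference differed between classes was tested in joint fits of 2 classes. In the 3 pairs among microglia-like, monocyte/macrophage-like and neutrophil-like cells 0 members were called (background 0%, 0% and 0.00862%). The neutrophil-like difference was lower than that of monocyte/macrophage-like cells for 32 of 37 members, 6 of them at an unadjusted p under 0.05. These 37 include Mx1, Ifi44, Phf11b and Phf11d, which were too low to be tested in neutrophil-like cells alone. The share of all genes lower in this pair is not given here, nor are the directions in the other pairs. This count is therefore description only. At the same unadjusted level, the label difference of 2 members was higher in monocyte/macrophage-like than in microglia-like cells. That of 1 member was lower in neutrophil-like than in microglia-like cells.

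With the 48 h libraries alone, whose label Prdx1-/- matched the loss of Prdx1 transcripts, the fit had 1 residual degree of freedom. Its p-values therefore rest mainly on a scatter pooled over all genes, and hardly on the scatter of the single gene between libraries. It gave 35 of 37 members negative in monocyte/macrophage-like cells (median -0.35), with 0 called in edgeR (0.274% of genes lower, 0.18% higher), and 31 of 32 in neutrophil-like cells (median -0.82), with 0 called (background 0%). In microglia-like cells 29 of 36 were negative (median -0.26). No median over all genes is given here for the 48 h differences. The counts of negative members in this paragraph, and their medians, are therefore description only. In T and NK-like cells 24 of 24 members tested were lower under the label (median -0.81) and 9 passed the test in edgeR, against 1.34% of all 6733 genes lower and 0.401% higher. The 9 were Isg15, Ifitm3, Ifi27l2a, Slfn5, Zbp1, Gbp2, Bst2, Phf11b and Ifit1, and they are named here after their values were seen. When the same 48 h difference was taken from the fit over all 8 libraries, 27 of 27 were negative, 0 were called (0.14% of genes lower) and 7 had an unadjusted p under 0.05. That fit called 0 members at 48 h in the other 3 classes too (0% of genes lower and 0.0219% higher in microglia-like, 0.00891% lower in monocyte/macrophage-like and 0% in neutrophil-like cells; 9, 1 and 16 members at an unadjusted p under 0.05). Slfn5 stood at 17.4, 37.9, 88.0 and 24.0 CPM at 24 h, then 61.2, 48.9, 12.9 and 15.2 CPM at 48 h, a 48 h difference of -1.99 ± 0.36 (adjusted p = 8.93e-06). Isg15 stood at 34.8, 126, 269 and 40.8 CPM at 24 h, then 86.8, 166, 54.8 and 37.3 CPM at 48 h (-1.48 ± 0.24 at 48 h, adjusted p = 1.85e-07). Both Prdx1-/- libraries of 48 h lay below both WT libraries of 48 h, whereas at 24 h the Prdx1-/- contralateral library was the highest of all 8 for Slfn5 and Isg15.

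Ifi27l2a, a small interferon-induced protein, stood at 171, 679.7, 315 and 638 CPM at 24 h, then 467, 307, 176 and 196 CPM at 48 h (-1.07 ± 0.17 at 48 h, adjusted p = 9.04e-08). Zbp1 stood at 55.7, 106, 83.4 and 61.3 CPM at 24 h, then 90.5, 111, 72.5 and 34.5 CPM at 48 h (-0.99 ± 0.23 at 48 h, adjusted p = 0.00296). Ifitm3 stood at 6.96, 45.5, 13.9 and 142 CPM at 24 h, then 117, 36.7, 16.1 and 17.9 CPM at 48 h. Its 48 h difference was -2.12 ± 0.32 (edgeR, adjusted p = 2.87e-08). The WT libraries of 48 h lay far apart for Ifitm3, and its highest library of all was the Prdx1-/- ipsilateral one of 24 h. Gbp2 had -1.39 ± 0.35 (adjusted p = 0.00800), Bst2 -0.83 ± 0.20 (adjusted p = 0.00524), Phf11b -0.97 ± 0.27 (adjusted p = 0.0236) and Ifit1 -1.23 ± 0.36 (adjusted p = 0.0427). The additive fit over 8 libraries called none of these, nor did DESeq2's test on it, but without the WT contralateral library of 24 h the additive fit called Gbp2 (-1.34 ± 0.27, adjusted p = 0.0320). The class held 36 to 123 cells and 215922 to 832617 UMIs per library, so that 1 UMI was worth 1.20 to 4.63 CPM. T cells and NK cells were not separated. Monocyte/macrophage markers in this class summed to 2640 and 2703 CPM in the WT and to 2702 and 2241 CPM in the Prdx1-/- libraries of 48 h, and neutrophil markers to 316, 563, 332 and 1216 CPM, highest in the Prdx1-/- ipsilateral library. The part of these in the differences was not tested.

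With time, monocyte/macrophage-like cells, the phagocytes that come from blood, had differences of 1 sign. All 37 members had a higher fitted level at 48 h than at 24 h (median log2 difference 0.97, against -0.004 over all 11222 genes tested), and 9 of the 37 rose in edgeR's test, where 0.971% of all genes tested rose and 0.41% fell, 1.38% in all. At an unadjusted p under 0.05 the number was 31. The 9 were Ifit3, Rsad2, Mx1, Slfn5, Stat2, Parp14, Herc6, Ddx58 and Trim30a. In all 4 matched pairs of libraries (same label and hemisphere) 28 of 37 members were higher at 48 h, against 14% of all genes tested. The 24 h and 48 h libraries may also differ by day of preparation, which cannot be told apart from time.

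Ifit3, which binds viral RNA together with Ifit1, stood at 8.39, 9.48, 18.6 and 4.19 CPM at 24 h, then 132, 50.2, 112 and 23.4 CPM at 48 h. All 4 libraries of 48 h lay above all 4 of 24 h, with a difference of 2.66 ± 0.36 (adjusted p = 0.0390). Rsad2, which makes a chain-terminating nucleotide, stood at 30.8, 22.5, 16.1 and 17.3 CPM at 24 h, then 164, 87.3, 181 and 48.0 CPM at 48 h, with no overlap and a difference of 2.21 ± 0.33 (adjusted p = 0.0435). Within the 48 h libraries both contralateral ones were the highest for Ifit3 and Rsad2 and the ipsilateral Prdx1-/- library the lowest. For Mx1, a dynamin-like GTPase known to be defective in this strain, the values were 5.03, 6.67, 13.5 and 5.90 CPM at 24 h, then 44.0, 25.3, 59.7 and 16.3 CPM at 48 h, and its difference was 1.95 ± 0.31 (adjusted p = 0.0396). Slfn5 stood at 85.0, 124, 74.5 and 85.3 CPM at 24 h, then 262, 257, 288 and 201 CPM at 48 h (1.40 ± 0.18, adjusted p = 0.0204). The levels at 48 h again lay above every 24 h library.

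Among the factors and sensors, Stat2, a subunit of the complex that binds the response element, rose by 1.21 ± 0.21 (adjusted p = 0.0398). It stood at 11.2, 13.3, 10.95 and 12.9 CPM at 24 h, then 37.4, 27.1, 42.2 and 22.1 CPM at 48 h. Ddx58 (RIG-I), a sensor of viral RNA, rose by 0.89 ± 0.16 (adjusted p = 0.0416). Parp14, an ADP-ribosyltransferase, rose by 0.97 ± 0.13, Herc6 by 0.97 ± 0.17 and Trim30a by 0.83 ± 0.16, with adjusted p = 0.0204, 0.0375 and 0.0480 from edgeR. Isg15, secreted and conjugated to proteins, stood at 71.6, 149, 120.5 and 163 CPM at 24 h, then 534, 321, 466 and 188 CPM at 48 h, and its 48 h values lay above those of 24 h in every library without passing the test (1.45 ± 0.49, adjusted p = 0.225). Ifitm3 and Slfn2, at 0.13 ± 0.17 and 0.05 ± 0.16, were higher in 2 of 4 pairs each, counted on TMM-scaled CPM. With matched libraries blocked, Stat2, Rsad2 and Trim30a were not called (adjusted p = 0.0616, 0.0648 and 0.0623). No call among the 9 held through the removal of each library in turn: the number called was 0 without either 24 h library labelled Prdx1-/- or without either 48 h library labelled WT, 1 without Prdx1-/- contralateral 48 h, 2 without WT ipsilateral 24 h, 10 without WT contralateral 24 h (the library with the neutrophil markers) and 27 without Prdx1-/- ipsilateral 48 h. The median stayed between 0.79 and 1.20 over all 15 alternatives, and DESeq2's test called 26 members. The share of all genes called under these alternatives is not given here, so their counts have no background beside them.

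**Figure D3:**
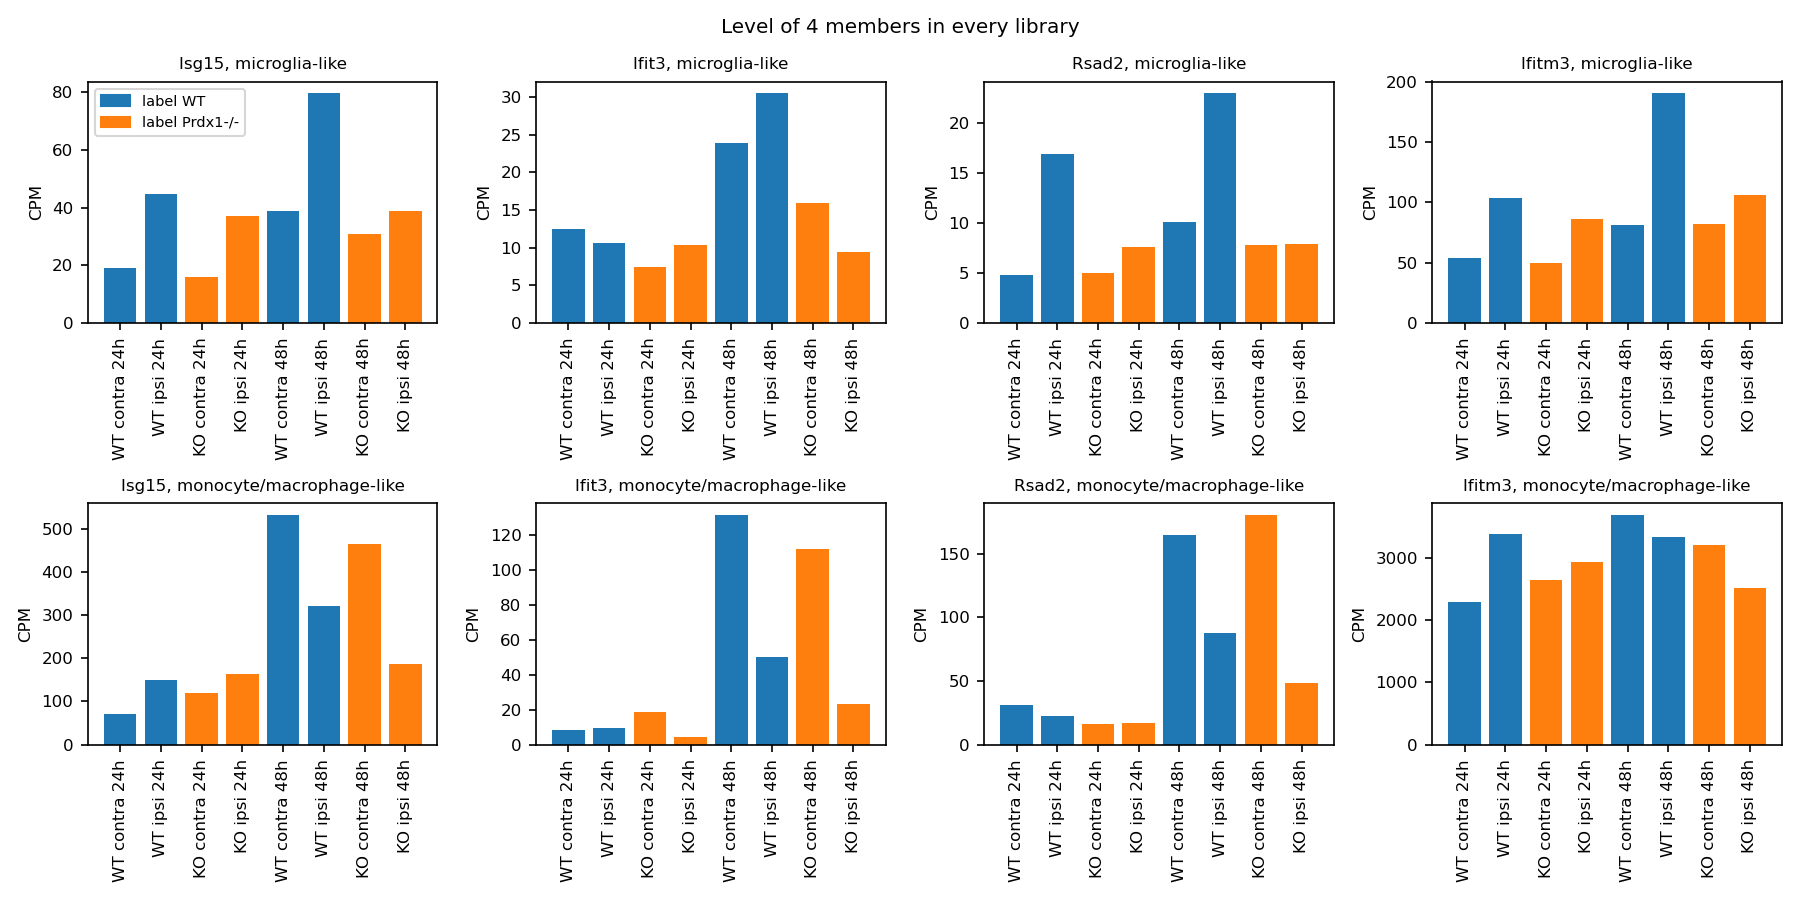
Level in CPM of Isg15, Ifit3, Rsad2 and Ifitm3 in each of the 8 libraries, for microglia-like cells (upper row) and monocyte/macrophage-like cells (lower row), 1 bar per library with no replicate, blue for the label WT and orange for Prdx1-/-. In monocyte/macrophage-like cells Ifit3 and Rsad2 are tallest in both contralateral 48 h libraries, and in microglia-like cells all 4 genes are tallest in the WT ipsilateral 48 h library.

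A minority of monocyte/macrophage-like cells was rich in member transcripts. Each cell was thinned to 2000 UMIs (10 shallower cells left out), and the UMIs of 33 members were added up, without Ifitm3, Slfn2, Bst2 and Ifi27l2a, a choice made after the values were seen. Cells with at least 10 such UMIs made up 4.21%, 4.66%, 4.27% and 3.19% of the class at 24 h, then 18.5%, 13.8%, 17.4% and 7.75% at 48 h. The exact 95% binomial intervals, which cover counting error only, ran from 1.16% to 10.4% for the WT contralateral library at 24 h and from 6.50% to 9.15% for the Prdx1-/- ipsilateral library at 48 h. The other cells averaged 1.57 to 2.04 member UMIs at 24 h and 2.16 to 2.71 at 48 h, so their ranges did not overlap either. The limit of 10 UMIs cuts a continuous range and defines no cell type: of 714 cells above it 138 had 10 or 11 UMIs, and 273 more had 8 or 9. In microglia-like cells the share was 0.627% to 1.68%.

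**Figure D4:**
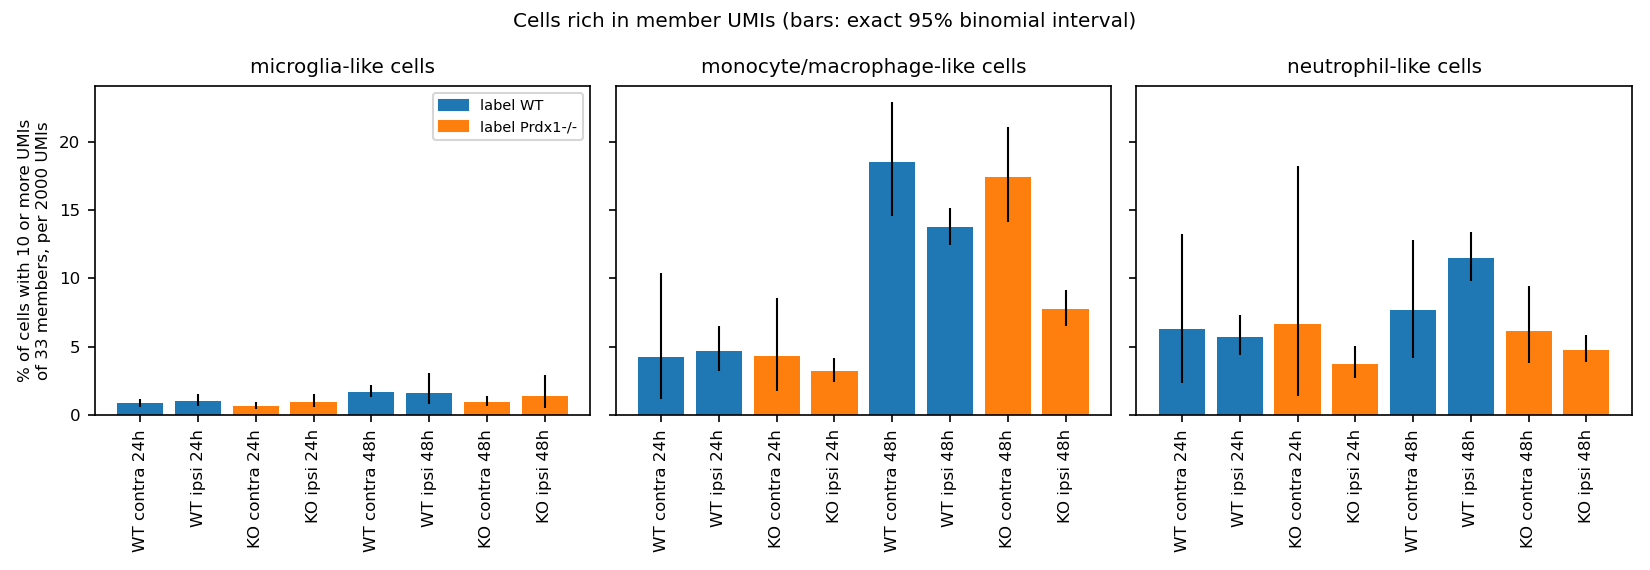
Share of cells, in percent, with 10 or more UMIs of 33 members after thinning to 2000 UMIs per cell, by library and class, with exact 95% binomial intervals as vertical lines. Monocyte/macrophage-like cells go from 3.19% to 4.66% at 24 h up to 7.75% to 18.5% at 48 h, and among neutrophil-like cells the WT ipsilateral 48 h library has the highest share, 11.5%.

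Microglia-like cells had a smaller difference with time: 35 of 37 members had a higher fitted level at 48 h (median log2 difference 0.43, all genes -0.024), and 7 rose while 0 fell, where 7.43% of all 13708 genes tested rose and 6.17% fell. Zbp1, a sensor of Z-form nucleic acid that can start necroptosis, stood at 6.40, 11.3, 4.77 and 7.85 CPM at 24 h, then 9.12, 22.5, 10.1 and 16.6 CPM at 48 h and rose by 0.87 ± 0.12 (adjusted p = 0.00126). Slfn5 stood at 11.9, 16.97, 8.26 and 10.6 CPM at 24 h, then 15.4, 30.9, 17.5 and 19.9 CPM at 48 h and rose by 0.77 ± 0.13 (adjusted p = 0.00422). Eif2ak2, which halts translation when it meets double-stranded RNA, rose by 0.39 ± 0.07 (adjusted p = 0.00706), with 35.3, 41.2, 31.8 and 32.4 CPM at 24 h, then 41.3, 53.1, 45.9 and 50.9 CPM at 48 h. In all 4 matched pairs 20 of 37 members were higher at 48 h and 0 lower, against 15.9% and 19.5% of genes. The calls of Zbp1, Slfn5 and Eif2ak2 held without any 1 library, and those of Ifit2 (1.08 ± 0.25), Ifitm3 (0.59 ± 0.13), Sp100 (0.44 ± 0.11) and Herc6 (0.29 ± 0.09) did not. Herc6 was also not called with matched libraries blocked (adjusted p = 0.0799). The count was 3 without WT ipsilateral 24 h or Prdx1-/- contralateral 48 h and 13 without WT contralateral 48 h. In the same cells 8 of 18 monocyte/macrophage markers rose with time, and their part in these differences was not tested.

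Neutrophil-like cells had 33 members tested and 0 called with time in edgeR (9 at an unadjusted p under 0.05, of which 7 were higher at 48 h; 4 higher and 1 lower in DESeq2's test, and 5 called with thinned cells). The background was 0.0106% of genes higher and 0.0424% lower. Cmpk2 had the smallest p (1.45 ± 0.25, adjusted p = 0.178) and Rsad2, its neighbour on the chromosome, the next (1.35 ± 0.25, adjusted p = 0.195). In these cells Rsad2 stood at 25.8, 39.0, 17.3 and 17.3 CPM at 24 h, then 55.8, 121, 61.0 and 47.5 CPM at 48 h, with the 48 h libraries above those of 24 h. Ifitm3 had a negative difference, with 2067, 1362, 1590.4 and 1273 CPM at 24 h, then 1279, 1189, 957 and 836 CPM at 48 h (-0.74 ± 0.20, adjusted p = 0.316). Of the 27 members tested in T and NK-like cells, 0 were called with time (background 0.0419% each way; 1 at an unadjusted p under 0.05, and 0 in DESeq2's test). In B-like cells 17 members were tested and 1, Ifi27l2a, fell with time (-0.78 ± 0.15, adjusted p = 0.0325 in edgeR; 0.135% of genes fell and 0.0771% rose).

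Between hemispheres, microglia-like and monocyte/macrophage-like cells gave medians of opposite sign, a difference between classes that was not tested. In microglia-like cells 14 of 37 members rose on the ipsilateral side and 2 fell (Ddx58 and Parp14), where 21.6% of all genes tested rose and 20.3% fell, so the share of members called in either direction, 43.2%, lay near the background of 41.9% and the split between directions did not. The median was 0.37 (all genes 0.003). Slfn2, a regulator of immune cell quiescence, stood at 72.0, 347, 94.8 and 318 CPM at 24 h, then 91.0, 273, 134 and 326 CPM at 48 h and rose by 1.85 ± 0.15 (adjusted p = 1.44e-04). All 4 ipsilateral libraries lay above all 4 contralateral ones. Zbp1 rose by 1.01 ± 0.12 (adjusted p = 2.64e-04), and Ifitm3, at 53.9, 104, 49.6 and 85.8 CPM at 24 h, then 81.0, 191, 81.8 and 106 CPM at 48 h, by 0.98 ± 0.13 (adjusted p = 0.00104).

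Isg15 in microglia-like cells stood at 19.1, 44.5, 16.04 and 36.9 CPM at 24 h, then 38.7, 79.6, 30.9 and 38.7 CPM at 48 h. It was higher on the ipsilateral side in every pair, by 1.10 ± 0.18 (adjusted p = 0.00384). Ifi204, a DNA sensor, rose by 1.01 ± 0.20, with 26.7, 64.9, 31.2 and 48.1 CPM at 24 h, then 31.3, 78.3, 56.9 and 69.9 CPM at 48 h. Rsad2 (1.08 ± 0.27), Oasl1 (1.67 ± 0.52), Ifi27l2a (0.85 ± 0.24), Irf7 (0.66 ± 0.22), Oas1a (0.65 ± 0.22) and Bst2 (0.37 ± 0.11) also rose, as did Slfn5 (0.65 ± 0.13), Usp18 (0.54 ± 0.13) and Eif2ak2 (0.32 ± 0.07). Ddx58 stood at 19.3, 12.4, 14.3 and 7.98 CPM at 24 h, then 17.1, 13.03, 16.1 and 10.3 CPM at 48 h and fell, with a difference of -0.50 ± 0.10 (adjusted p = 0.00291); Parp14, at -0.23 ± 0.08, fell less. With matched libraries blocked, Oasl1, Oas1a and Irf7 were not called (adjusted p = 0.0562, 0.0549 and 0.0663). Of the 16 calls, 9 held without any 1 library (Slfn2, Zbp1, Ifitm3, Ddx58, Slfn5, Isg15, Eif2ak2, Ifi204 and Usp18). The number called higher was 8 without WT ipsilateral 48 h, 9 without WT contralateral 48 h and 9 with the 48 h libraries alone.

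The same cells also carried more monocyte/macrophage and neutrophil marker transcripts on the ipsilateral side. Summed B, dendritic, border macrophage, endothelial, oligodendrocyte, astrocyte, mural, and mast and basophil markers were lower there in every matched pair. Those of T and NK cells and of erythrocytes went both ways. Of 18 monocyte/macrophage markers 11 rose and 0 fell with hemisphere in microglia-like cells, and 0 of 15 microglia markers rose while 13 fell. The monocyte/macrophage markers' summed level was 402 to 831 CPM in the 4 contralateral and 671 to 1379 CPM in the 4 ipsilateral libraries, and no marker of the list was at 0 over all libraries. Neutrophil markers summed to 253 to 459.5 CPM on the contralateral and 459 to 1259 CPM on the ipsilateral side. Under a stricter gate 10 members were called higher with hemisphere and 15 were called with time. The part of monocyte and neutrophil transcripts in these differences was not tested.

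In monocyte/macrophage-like cells 29 of 37 members had a lower fitted level on the ipsilateral side (median -0.29, all genes -0.026), and 0 were called in edgeR, where 1.96% of genes rose and 0.651% fell, 2.61% in all (9 members lower and 1 higher at an unadjusted p under 0.05; 4 lower and 1 higher in DESeq2's test). Gbp3, a GTPase of intracellular defence, had the smallest p, at 12.9, 10.9, 13.1 and 8.18 CPM at 24 h, then 21.6, 13.8, 21.6 and 10.2 CPM at 48 h (-0.65 ± 0.16, adjusted p = 0.0667). Ifit3 had -1.55 ± 0.36 (adjusted p = 0.0898) and Mx1 -1.03 ± 0.31 (adjusted p = 0.135), while Slfn2, at 449.5, 613, 343 and 787 CPM at 24 h, then 517, 624, 476 and 649 CPM at 48 h, had 0.65 ± 0.16 (adjusted p = 0.0747). The count of members called lower was 5 without the WT contralateral library of 24 h, which had the raised neutrophil markers, 10 with thinned cells, 2 with the stricter gate and 7 with the 48 h libraries alone (median -0.65). Without the Prdx1-/- ipsilateral library of 48 h the median was -0.034. Neutrophil-like cells had 28 of 33 members higher on the ipsilateral side (median 0.31) and T and NK-like cells 9 of 27 (median -0.15). The neutrophil-like median was 0.03 with thinned cells (18 of 31 positive), 0.14 without the WT ipsilateral and 0.55 without the Prdx1-/- ipsilateral library of 48 h. The T and NK-like median changed sign, to 0.17 with 17 of 26 positive, without the Prdx1-/- contralateral library of 24 h, and over 16 alternatives it ran from -0.40 to 0.17. In both classes, 0 were called in edgeR and in DESeq2's test (background 0% and 0% higher or lower in the former, 1.29% higher and 0.587% lower in the latter; 4 and 3 at an unadjusted p under 0.05). The neutrophil-like count was 2 higher without the Prdx1-/- ipsilateral library of 48 h and 1 with thinned cells. In T and NK-like cells 2 were called lower without the WT contralateral library of 24 h and 3 with the 48 h libraries alone.

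Other genes of the pathway, from lists set beside the members, were also tested with the label. In microglia-like cells 0 were called of 9 receptor and kinase genes, 22 upstream sensing genes, 10 feedback inhibitors, 56 further interferon-induced genes and 14 type II genes tested, where 0% of all genes passed. In the other 3 classes 0 were called of 9, 11 to 22, 9 to 10, 42 to 55 and 10 to 13 tested in the same order. The ligand lists had 0 or 1 gene tested per class, too few for a count. Of 17 genes of type I interferon ligands 4 were in the tables. Ifnb1, the gene of interferon beta, had 282 UMIs in 50 of 20616 microglia-like cells, 22 UMIs in 9 of 7500 monocyte/macrophage-like cells, 3 UMIs in 1 of 5982 neutrophil-like cells and 0 in 700 T and NK-like cells, which allows up to 0.429% of those cells with a UMI. By library the microglia-like cells held 69, 31, 56 and 5 UMIs at 24 h, then 7, 25, 34 and 55 UMIs at 48 h, each from 4 to 9 cells, and its difference with hemisphere was 0.90 ± 1.25 (adjusted p = 0.608). Ifng, the type II interferon, had 394 UMIs in 166 of 700 T and NK-like cells and 7 UMIs in 6 of 20616 microglia-like cells, whose median depths were 5868.5 and 8223.5 UMIs per cell.

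The counts of the pathway lists with hemisphere in microglia-like cells stand against 21.6% of all genes that rose and 20.3% that fell. Of the 9 receptor and kinase genes 2 rose and 3 fell on the ipsilateral side, among them Ifngr1, a chain of the type II receptor, at -0.78 ± 0.08 (adjusted p = 1.60e-04), Stat3 at 0.73 ± 0.08 (adjusted p = 1.69e-04), Tyk2 at -0.41 ± 0.08 (adjusted p = 0.00405) and Ifnar2 at -0.30 ± 0.08 (adjusted p = 0.0113). Upstream sensing genes gave 5 higher and 9 lower of 22, among them the toll-like receptors Tlr4 at -0.63 ± 0.07 (adjusted p = 1.51e-04) and Tlr3 at -0.62 ± 0.07 (adjusted p = 2.00e-04), the adaptor Myd88 at 0.72 ± 0.09 (adjusted p = 2.97e-04) and the kinase Ikbke at 2.34 ± 0.30 (adjusted p = 4.29e-04). Feedback inhibitors gave 3 higher and 2 lower of 10, with Socs1, which blocks the receptor kinases, at 1.16 ± 0.26 (adjusted p = 0.0111) and Pias1 at -0.41 ± 0.07 (adjusted p = 0.00221). Further interferon-induced genes gave 14 higher and 8 lower of 56, with the ubiquitin ligase Trim25 at 1.06 ± 0.09 (adjusted p = 7.49e-05) and Ifitm2 at 1.66 ± 0.14 (adjusted p = 1.68e-04). Genes induced mainly by type II interferon gave 0 higher and 4 lower of 14 tested, with Gbp9 at -0.76 ± 0.15 (adjusted p = 0.00354) and Irgm2 at -0.69 ± 0.16 (adjusted p = 0.00736). In monocyte/macrophage-like cells 7 of 55 further interferon-induced genes and 3 of 13 type II genes rose with time, and 0 of either fell, where 0.971% of all genes rose and 0.41% fell.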

How the data were processed

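Counts of UMIs per gene and cell were deposited by the authors, 1 table per library; the submitters' processing notes name Cell Ranger, Seurat and mm10, and the handling of reads shared between genes is not given in the sources used here. The 37 members and the gene lists were chosen with earlier results of these data known. Cells with at most 10% mitochondrial UMIs and at least 200 genes were placed in a class where its marker score was at least 0.2 and at least 1.5 times the next. Cells scoring in 2 classes (1931) were left out as the treatment of doublets, and no doublet caller was run. Counts were summed per class and library, from libraries with at least 20 cells of the class, and tested with edgeR 4.0.16 (TMM scaling, filterByExpr, quasi-likelihood) with Benjamini-Hochberg adjustment over all genes and a threshold of 0.05. Each combination of label, hemisphere and time held 1 library, so the additive fit had 4 residual degrees of freedom. Printed levels are CPM of the class's UMIs, while matched pairs were counted on CPM scaled by the TMM factors. A log2 difference is given with its SE. Members named were those past the threshold for the label, up to 6 per contrast by p, and the most abundant of each role. The test was run on simulated data: 98.5% of 200 genes with a 2-fold change with the label in microglia-like cells were recovered among 13497, with 23 false calls. Those counts were drawn from the fitted means and dispersions of that class only. The share recovered therefore checks that the test runs, and does not tell what share it would find in the real libraries. The false calls made up a larger share of all calls than the threshold of 0.05 aims at. Alternatives were DESeq2 1.42.0 (its size factors and its test), no filter, a stricter gate (score 0.3, 2.5 times the next), cells thinned to 2000 UMIs, mixed cells kept, a block for matched pairs, the 48 h libraries alone and each library left out.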

Additional observations from a re-analysis of the deposited data

How the results depend on the processing

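The labels carry no replicate numbers, since each combination held 1 library, so matched libraries were blocked instead: with this block every count of members called stayed within 1.5 times that reported, while 7 single calls were lost: Oasl1, Oas1a and Irf7 with hemisphere and Herc6 with time in microglia-like cells, and Stat2, Rsad2 and Trim30a with time in monocyte/macrophage-like cells (adjusted p from 0.0549 to 0.0799). The count called lower under the label was 2 with DESeq2's test, 1 with thinned cells and 1 with the 48 h libraries alone in microglia-like cells, against 0. In T and NK-like cells it was 9 with the 48 h libraries alone and 0 to 1 when a library was left out, and the interaction of label and time gave 1 with no filter. Under the stricter gate the members lower in every matched pair numbered 6 of 37 in monocyte/macrophage-like cells (5.66% of all genes) and 0 of 23 in T and NK-like cells (5.92%), and Prdx1 in microglia-like cells stood at 297 CPM (WT ipsilateral 24 h), 169 CPM (Prdx1-/- ipsilateral 24 h) and 434 CPM (WT ipsilateral 48 h). The count called higher in the ipsilateral hemisphere in microglia-like cells was 9 with the 48 h libraries alone and 8 to 15 with 1 library left out. It was 1 in monocyte/macrophage-like cells with no filter or with DESeq2's test. In neutrophil-like cells it was 1 with thinned cells and 0 to 2 with 1 library left out. The count changed with time was 15 (stricter gate), 11 (DESeq2's test), 13 (mixed cells kept) and 3 to 13 (1 library left out) in microglia-like cells. In monocyte/macrophage-like cells it was 17 (stricter gate), 17 (thinned cells), 26 (DESeq2's test), 5 (mixed cells kept) and 0 to 27 (1 library left out). In neutrophil-like cells it was 1 (no filter), 5 (thinned cells), 5 (DESeq2's test) and 0 to 3 (1 library left out). The cause of these shifts was not tested. For these counts of members called, the share of all genes called under the same setting is not given here, so they are description only. In microglia-like cells 4 of 16 calls with hemisphere (Isg15, Slfn2, Slfn5 and Zbp1) and 1 of 7 with time (Slfn5) were kept in every alternative run, and in monocyte/macrophage-like cells 0 of 9 with time. In T and NK-like cells, with 215922 to 832617 UMIs per library, 10 members (Cmpk2, Dhx58, Ifi204, Ifi44, Mx1, Oas1a, Oasl1, Oasl2, Phf11d and Usp18) were too low to be tested.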
